A study of Mus musculus with 12 samples.

Results

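Translation initiation and elongation factors are the soluble proteins that load messenger RNA and initiator tRNA onto the ribosome and then drive it along the message. Listed peaks of MYC, a transcription factor, and of MAX, its partner, were read at 38 genes for such factors, chosen by name, among 21887 protein-coding genes. A gene was counted as bound when at least 1 bp of a listed peak fell within its annotated extent plus 1 kb on each side. The peaks were called from ChIP-seq, the sequencing of DNA pulled down with an antibody against a bound protein. The cells were RAW264.7, an established mouse line of the monocyte and macrophage lineage that forms bone-resorbing osteoclasts when given the cytokine RANKL. The groups were cells with RANKL at 50 ng/ml, cells with the BET bromodomain inhibitor I-BET at 500 nM, cells with both, each for 4 h, and untreated cells, with 1 peak list per antibody and treatment. All groups share this cell line, and differences between treatments therefore have no replicate check and no p-value. Peak lists measure binding and not expression, so the labelled cell type could not be checked by its transcripts. Of 10 macrophage marker genes, 9 had a MAX peak with I-BET and 6 in untreated cells, against 58.7% and 29.8% of all genes. Of 4 marker genes for each other cell type, the counts with I-BET and in untreated cells were 1 and 1 for B cells, 3 and 1 for T cells, 1 and 0 for fibroblasts, and 3 and 0 for neurons. With RANKL and with RANKL plus I-BET the macrophage counts were 6 and 4, against 34.5% and 23.5% of all genes. In these lists they were 0 and 1 for B cells, 1 and 1 for T cells, and 0 and 0 for fibroblasts and for neurons.

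Initiation starts with eIF4F, in which eIF4E holds the cap, eIF4G is the scaffold and eIF4A unwinds the leader, while eIF2 delivers the initiator tRNA and eIF3 bridges the message and the small ribosomal subunit. Elongation then rests on eEF1A, which brings aminoacyl-tRNA, its exchange factor eEF1B, and eEF2, which moves the ribosome by a codon. MYC is known for raising the protein-making capacity of growing cells, with Eif4e and other factor genes among its described targets. MYC binds DNA as a pair with MAX, preferring the E-box CACGTG. MAX also pairs with itself and with the MXD, MNT and MGA proteins, so a MAX peak alone does not name the partner. BET proteins read acetylated histones at active promoters, and I-BET compounds displace them.

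The promoters printed are from genes with a listed MYC peak and a RefSeq window, chosen to show sites with and without an E-box. That of Eef2 is added as a gene with MAX and no listed MYC. Eif1ad and Eif5a also had a MYC peak and a window and are not printed. Each runs 5′ to 3′ on the gene's strand from 250 bases before to 50 bases after an annotated start (RefSeq, GRCm38.p6, the same assembly as mm10). Capitals mark the E-box CACGTG and its variants, namely CACGCG (whose other strand reads CGCGTG) as well as CATGTG (whose other strand reads CACATG).
Eif4a1, chr11:69672374-69672673, minus strand: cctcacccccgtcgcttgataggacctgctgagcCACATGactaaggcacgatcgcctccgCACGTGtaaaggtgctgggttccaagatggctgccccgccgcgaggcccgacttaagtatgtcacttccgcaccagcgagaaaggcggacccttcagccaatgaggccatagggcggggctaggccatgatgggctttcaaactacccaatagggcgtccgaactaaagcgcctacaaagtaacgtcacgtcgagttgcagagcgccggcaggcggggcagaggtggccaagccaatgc
Eif4g1, chr16:20672477-20672776, plus strand: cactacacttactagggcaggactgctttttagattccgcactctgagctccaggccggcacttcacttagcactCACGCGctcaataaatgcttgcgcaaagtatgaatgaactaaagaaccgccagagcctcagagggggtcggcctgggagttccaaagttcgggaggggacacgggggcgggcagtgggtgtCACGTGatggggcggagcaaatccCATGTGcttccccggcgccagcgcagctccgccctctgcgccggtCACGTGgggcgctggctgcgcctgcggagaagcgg
Eif3a, chr19:60790644-60790943, minus strand: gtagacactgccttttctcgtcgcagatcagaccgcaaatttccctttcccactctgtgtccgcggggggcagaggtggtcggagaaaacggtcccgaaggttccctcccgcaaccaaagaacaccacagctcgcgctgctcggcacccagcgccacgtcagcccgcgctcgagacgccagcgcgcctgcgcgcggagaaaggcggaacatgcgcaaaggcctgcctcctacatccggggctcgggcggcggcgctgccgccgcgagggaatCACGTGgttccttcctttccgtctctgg
Eif3b, chr5:140419055-140419354, plus strand: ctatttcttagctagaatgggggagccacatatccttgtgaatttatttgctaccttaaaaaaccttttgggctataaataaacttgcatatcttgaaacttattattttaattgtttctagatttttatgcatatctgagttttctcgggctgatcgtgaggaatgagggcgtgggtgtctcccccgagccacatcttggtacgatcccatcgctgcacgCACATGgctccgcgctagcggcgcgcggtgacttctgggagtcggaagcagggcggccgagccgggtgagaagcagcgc
Eef2, chr10:81176381-81176680, plus strand: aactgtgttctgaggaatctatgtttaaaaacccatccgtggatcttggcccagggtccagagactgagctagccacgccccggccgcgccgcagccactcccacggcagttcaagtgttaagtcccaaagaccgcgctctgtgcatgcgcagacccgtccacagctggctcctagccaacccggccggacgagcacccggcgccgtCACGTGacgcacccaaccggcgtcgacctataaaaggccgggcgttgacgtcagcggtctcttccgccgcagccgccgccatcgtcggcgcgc
Eef1e1, chr13:38658979-38659278, minus strand: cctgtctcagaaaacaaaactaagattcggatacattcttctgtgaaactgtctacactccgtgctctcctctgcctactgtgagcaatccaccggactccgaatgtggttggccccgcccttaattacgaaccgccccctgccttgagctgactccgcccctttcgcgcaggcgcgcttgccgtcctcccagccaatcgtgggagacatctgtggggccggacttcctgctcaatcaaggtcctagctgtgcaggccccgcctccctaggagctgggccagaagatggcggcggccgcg
In Eif4a1 the CACGTG began 189 bases upstream of the start. It lay inside the MYC peak of rank 211 with RANKL and inside MAX peaks of all 4 treatments. The higher-ranked MYC peak of Eif4a1 with RANKL, at rank 45, lay outside the printed window. Eif4g1 held CACGTG 54 bases upstream and again 15 bases downstream of the start. The downstream copy lay inside its MYC peak with RANKL, the upstream copy lay just outside it, and both lay inside MAX peaks in all 4 treatments. The single CACGTG of Eif3a, 22 bases downstream of the start, lay inside its untreated MYC peak. Eif3b had no CACGTG in the window, and its CACATG lay inside the untreated MYC peak. The Eef1e1 window held none of the 3 motifs, and its MYC peak began 108 bp downstream of the start. Of the genes not printed, the Eif1ad window held none of the 3 motifs. No motif of the Eif5a windows lay inside the Eif5a MYC peak.

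RefSeq promoter windows were found for 28 of the 38 genes, 34 windows in all. Eif4ebp1, Eif2b3, Eif3e, Eif3h, Eif3i, Eif6, Eef1d, Eef1g, Pabpc1 and Etf1 had no entry. CACGTG was present in at least 1 window of 8 genes (28.6%): Eif4e, Eif4a1, Eif4g1, Eif4h, Eif3a, Eif3f, Eif5a and Eef2. Over all protein-coding genes with a window the share was 8.91% (1559 of 17492). Read by windows, 10 of 34 translation factor windows (29.4%) and 7.84% of all windows held it. Of the 3 Eif5a windows that hold it, 2 overlap and share the same E-box. The translation factor windows were also richer in G and C, with a median of 61.5% against 56.3% over all windows. CACGCG was found in 6 and CATGTG in 5 of the 28 genes (21.4% and 17.9%, against 13.7% and 13.2% of all genes), and a match of 1 motif can overlap one of another or of the opposite strand. Among windows overlapped by an untreated MAX peak, 35.7% of the 28 from translation factors held CACGTG, against 17.9% of the 4473 from all genes. A motif match is a description of the sequence and not a binding site.

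MAX was listed at most of the 38 genes in every treatment, and MYC at few. The MYC lists are far shorter, and their names carry another threshold-like tag than those of the MAX lists, so the counts of the antibodies are not set against each other. A MAX peak was listed at 33 genes with RANKL (86.8%, exact 95% interval 71.9 to 95.6), against 34.5% of all protein-coding genes in that list. With I-BET it was 38 of 38 (lower bound 90.7%) against 58.7% of all genes. With RANKL plus I-BET it was 28 (73.7%, 56.9 to 86.6) against 23.5%. In untreated cells it was 33 (86.8%, 71.9 to 95.6) against 29.8%. The intervals are Clopper-Pearson and cover counting error only, and genes are not replicates. The median gene extent was 16.0 kb for the translation factors and 17.2 kb for all genes, and shares at matched length were not counted. At 26 of the 38 a MAX peak was listed in all 4 treatments, against 20.3% of all genes. Of all 38 genes 13 had a MAX peak that also lay in the window of a neighbouring protein-coding gene. Examples are Senp3 and Cd68 beside Eif4a1, Banf1 beside Eif1ad and Tut1 beside Eef1g. Such a peak cannot be assigned to 1 gene, and the share of all genes with a shared peak was not counted.

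**Figure D1:**
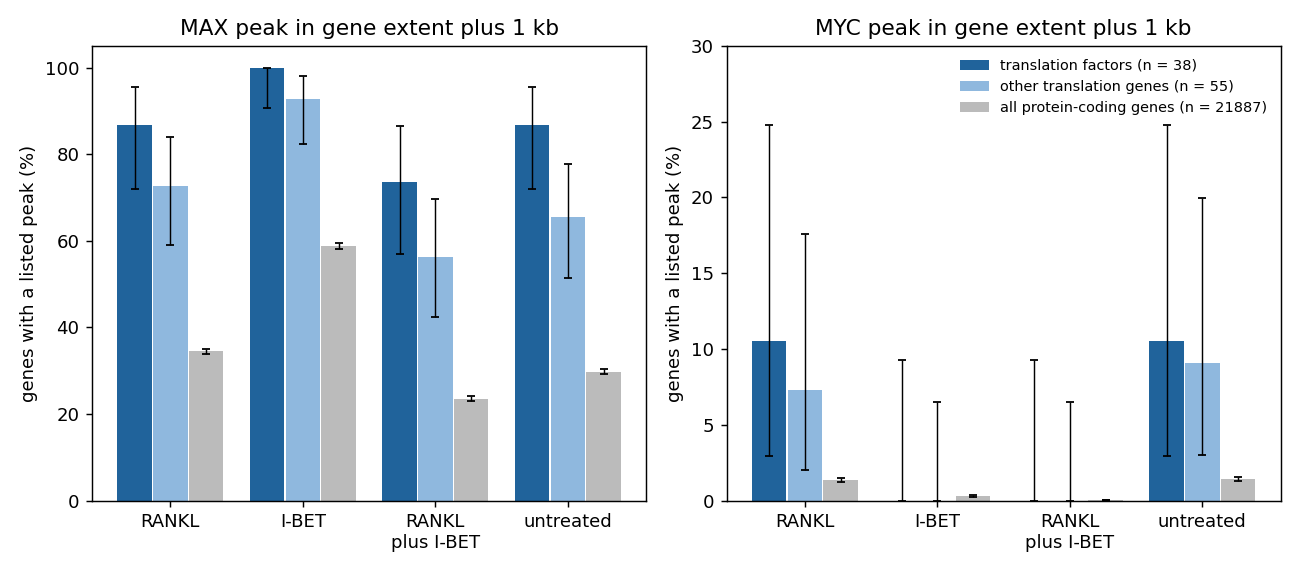
Share of genes (%) with a listed MAX peak (left) or MYC peak (right) by treatment, for the 38 translation factors, 55 other translation genes and all 21887 protein-coding genes; error bars are exact 95% intervals for counting error. The MAX bars of the translation factors run between 73.7% and 100%, above the grey bars of all genes in each treatment, and no MYC peak was listed at them with I-BET, alone or with RANKL.

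MYC peaks were listed at 4 of the 38 genes with RANKL and at 4 in untreated cells (10.5% each, exact 95% interval 2.94 to 24.8), against 1.35% and 1.42% of all genes. A MYC peak in any treatment was thus listed at 8 of 38 genes, against 2.26% of all genes. No gene was in both lists. With RANKL they were Eif4a1, Eif4g1, Eif1ad and Eef1e1, and in untreated cells Eif3a, Eif3b, Eif5a and Pabpc1. With I-BET (0.292% of all genes) and with RANKL plus I-BET (0.0366%) none of the 38 had a MYC peak, and the exact upper bound is 9.25% for each. Of all genes with an untreated MYC peak, 51.9% had none with RANKL, 91.3% had none with I-BET, and 97.6% of those with a RANKL peak had none with RANKL plus I-BET. At the 38 genes, each of these 3 comparisons left 0 of 4. MYC peaks were added at 0 of 34 genes with I-BET against untreated (0.171% of all genes without one) and at 0 of 34 with RANKL plus I-BET against RANKL (0.00463%). With RANKL plus I-BET against I-BET they were added at 0 of 38 (0.0321%), and no gene had one to lose, while 98.4% of all genes with an I-BET peak lost it. All 9 MYC peaks at the 38 genes overlapped a MAX peak of the same treatment, as did 97.0% of the MYC peaks at all genes in these lists, and MAX peaks overlapped the same sites in all 4 treatments.

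The helicase gene Eif4a1 carried 2 MYC peaks with RANKL. The peak at chr11:69671312-69671615, 304 bp wide, ranked 45 of 299 by the authors' score, where rank 1 is the highest, and its middle was 960 bp downstream of the annotated start. The other, at chr11:69672347-69672673, ranked 211 and covered the start and the whole window printed above. MAX peaks of 829 and 612 bp with RANKL overlapped these sites, as did peaks of 759 and 716 bp with RANKL plus I-BET and of 642 and 431 bp in untreated cells. With I-BET alone 1 peak of 1970 bp spanned both. Eif4g1, the scaffold gene, had a MYC peak with RANKL at chr16:20672699-20673136, 438 bp wide, at rank 171. The MAX peak there was 848 bp wide with RANKL, 1954 bp with I-BET, 830 bp with RANKL plus I-BET and 787 bp in untreated cells. At both genes MAX was thus listed in all 4 treatments and MYC with RANKL alone. Of the other chosen eIF4F genes, Eif4e, Eif4b and Eif4h (the latter both cofactors of the helicase) had no MYC peak. Nor did Eif4ebp1 and Eif4ebp2, which sequester eIF4E. Eif4a2, the paralog of Eif4a1, is counted below among other translation genes. It had MYC peaks with RANKL (rank 50 of 299) and in untreated cells (rank 54 of 312). Eif4e2, Eif4e3, Eif4g2, Eif4g3 and Eif4ebp3, also counted there, had none.

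The highest-ranked MYC peak at any of the 38 genes was that beside Eif1ad, a gene for a protein with an eIF1A domain. It lay at chr19:5366111-5366581 with RANKL, 471 bp wide, at rank 28 of 299, and its middle was 467 bp upstream of the Eif1ad start, in the window of Banf1 as well. MAX peaks overlapped it with widths of 1569 bp with RANKL, 1749 bp with I-BET, 961 bp with RANKL plus I-BET and 771 bp in untreated cells. Eef1e1 encodes a protein of the multi-tRNA synthetase complex that is related to elongation factors. Its MYC peak with RANKL, at chr13:38658609-38658920, was 312 bp wide and ranked 239. The MAX peak at this site ranged between 555 bp with RANKL plus I-BET and 791 bp with I-BET.

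In untreated cells the 4 MYC peaks lay in the lower-ranked part of a list of 312. Eif3a encodes the largest eIF3 subunit, and its peak at chr19:60790349-60790760 was 412 bp wide and ranked 208. Eif3b, another core subunit gene of eIF3, had a peak at chr5:140419160-140419391, 232 bp wide, at rank 186. Both covered the annotated start. MAX widths at Eif3a were 672 bp with RANKL, 1319 bp with I-BET, 388 bp with RANKL plus I-BET and 529 bp in untreated cells. At Eif3b they were 1377, 1929, 748 and 1155 bp in the same order. The peak of Eif5a, whose protein carries the modified amino acid hypusine and helps the ribosome through difficult stretches, was 170 bp wide at chr11:69921718-69921887 and ranked 171. MAX peaks at the site were 1706 bp wide with RANKL, 2473 bp with I-BET, 620 bp with RANKL plus I-BET and 717 bp in untreated cells. The CACGTG copies in the Eif5a windows lay outside it and inside MAX peaks of all 4 treatments. Pabpc1, the main cytosolic poly(A) binding protein gene, had a peak of 202 bp at chr15:36607877-36608078, at rank 213. It lay inside the gene, more than 1 kb from either end, under MAX peaks of 675, 972, 551 and 683 bp in the same order. None of these 4 sites had a MYC peak in another treatment.

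MAX peaks of the translation factors stood high in their own lists. By the best-ranked peak of each gene, the median with RANKL was rank 2197 of 10889 (20.2% from the top), against 40.9% for all genes with a peak. With I-BET it was rank 1922 of 36785 (5.22%), against 19.2%. With RANKL plus I-BET it was rank 1469 of 6307 (23.3%), against 44.5%, and in untreated cells rank 1883 of 8839 (21.3%), against 43.1%. The top 10% of a list held the best peak of 8 of 33 genes with RANKL (14.2% of all genes with a peak), 28 of 38 with I-BET (29.0%), 7 of 28 with RANKL plus I-BET (12.5%) and 9 of 33 in untreated cells (13.5%). Ranks are given within a list, and ranks of lists of unequal length show no change. The best untreated ranks were held by Eif2s3x (rank 240), Eif4h (495), Eif2b3 (620), Eif1ad (665) and Eif4b (705).

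**Figure D2:**
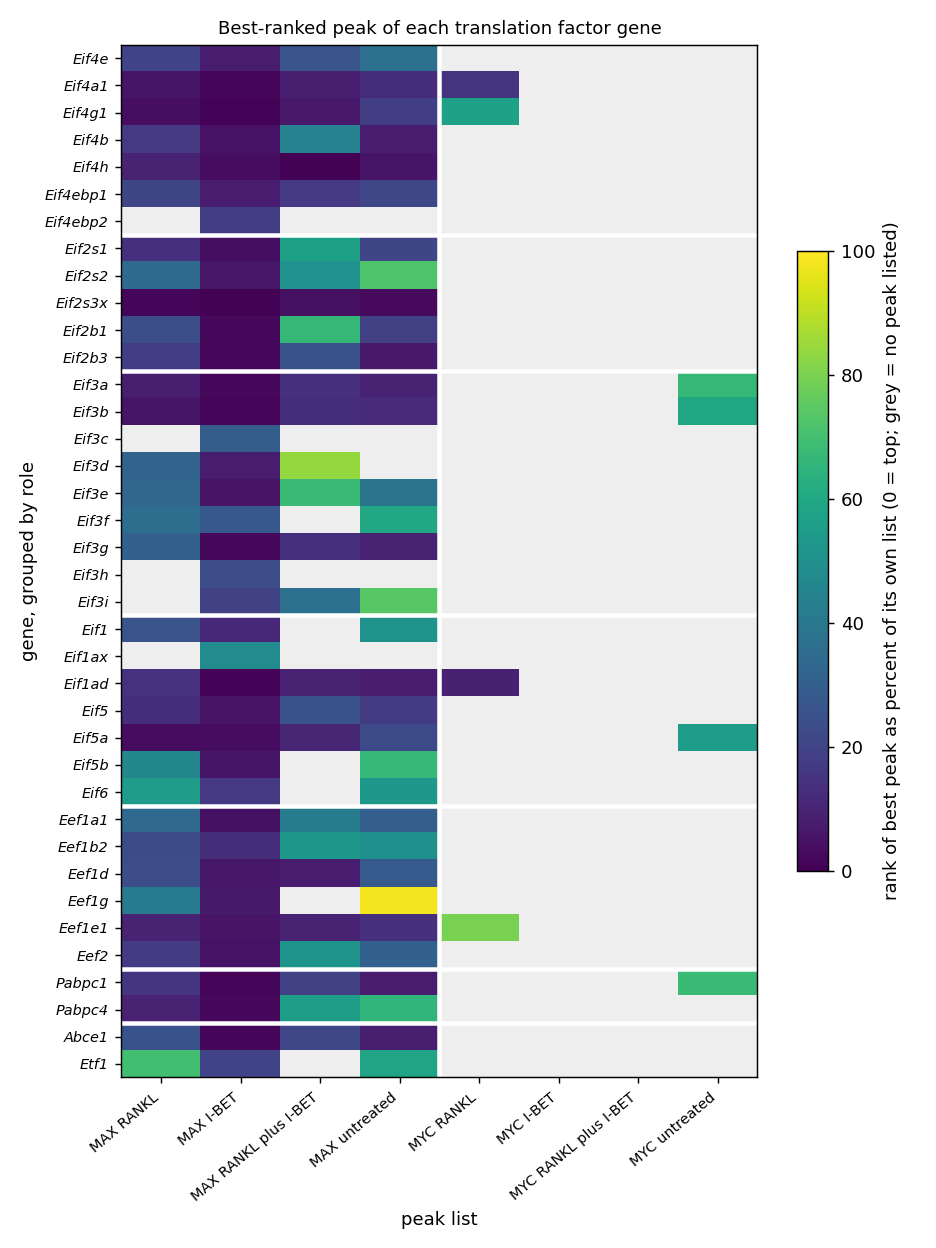
Rank of the best-scoring peak of each gene as a percent of its own list (color, 0 is the top of the list, grey means no listed peak), for 38 genes grouped by role and 8 peak lists. The MAX I-BET column has no grey cell, 10 genes are grey with RANKL plus I-BET, and the MYC columns hold 4 colored cells with RANKL and 4 untreated.

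Among the eIF4F genes the cap-binding protein gene Eif4e had MAX at its second annotated start in all 4 lists. Its best peak was 831 bp wide with RANKL, 2257 bp with I-BET, 770 bp with RANKL plus I-BET and 694 bp in untreated cells, and the 2 CACGTG copies of that promoter, 228 and 64 bases upstream, lay inside each of them. Eif4h ranked 40 of 6307 with RANKL plus I-BET, the highest rank of any translation factor in that list. Its CACGTG lay 96 bases upstream of the start, inside MAX peaks of all 4 treatments. Eif4ebp1 had MAX in every treatment, while Eif4ebp2, for the paralogous eIF4E inhibitor, had MAX peaks with I-BET alone, the best at rank 6813.

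The chosen eIF2 and eIF2B genes had MAX in all 4 treatments at 5 of 5 genes, against 20.3% of all genes. Further eIF2B genes were counted with the other translation genes. Of these, Eif2b4 and Eif2b5 had MAX in all 4 treatments. Eif2b2 had MAX with RANKL and with I-BET, and none with RANKL plus I-BET or in untreated cells. Eif2s3x, the X-linked gene for eIF2γ, stood at rank 144 with RANKL, 219 with I-BET, 283 with RANKL plus I-BET and 240 in untreated cells. Its promoter window held none of the 3 motifs, and the peaks covered the start, with widths of 884 bp with RANKL, 1040 bp with I-BET, 741 bp with RANKL plus I-BET and 736 bp in untreated cells. Eif2s2, for eIF2β, ranked 6406 in untreated cells, and Eif2s1, for eIF2α, ranked 1851. The eIF2B genes Eif2b1 and Eif2b3, whose products recharge eIF2 with GTP, ranked 1673 and 620.

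At the chosen eIF3 genes MAX was listed at 6 of 9 with RANKL and at 9 of 9 with I-BET. It was listed at 6 of 9 with RANKL plus I-BET and at 6 of 9 in untreated cells. The shares of all genes were 34.5%, 58.7%, 23.5% and 29.8% in the same order. With so few genes the exact 95% interval of 6 of 9 runs from 29.9% to 92.5%. Eif3a, Eif3b, Eif3e and Eif3g had it in all 4 treatments. Eif3d had a MAX peak in each treated list and none in untreated cells, with widths of 944 bp with RANKL, 1144 bp with I-BET and 850 bp with RANKL plus I-BET. Eif3i had none with RANKL and a peak in the other 3 lists, all of them also in the window of Tmem234. Eif3f had no peak with RANKL plus I-BET. Eif3c and Eif3h had MAX with I-BET alone, at best ranks of 10880 and 8704. The eIF3 genes Eif3j1, Eif3k, Eif3l and Eif3m were counted with the other translation genes. All of them had MAX with I-BET, and none had it with RANKL plus I-BET. Eif3j1, Eif3k and Eif3m also had MAX with RANKL and in untreated cells, and Eif3l had it in neither. The drop from RANKL to RANKL plus I-BET at these genes is thus not seen in the counts of the chosen eIF3 genes.

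Of the genes chosen for eIF1, eIF5 and eIF6, 6 of 7 had MAX with RANKL and 7 with I-BET. With RANKL plus I-BET 3 had it, and in untreated cells 6 did. The shares of all genes were 34.5%, 58.7%, 23.5% and 29.8% in the same order. The exact 95% interval of 3 of 7 runs from 9.90% to 81.6%. Eif5, the gene for the GTPase activator of eIF2, Eif5a and Eif1ad kept a peak in all 4 lists. Eif1 (start codon fidelity), Eif5b (subunit joining) and Eif6 (which keeps the large subunit apart) had none with RANKL plus I-BET. Eif1ax, for eIF1A, had a MAX peak with I-BET alone, at rank 17692.

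The 6 genes grouped here as elongation factors include the related Eef1e1. All 6 had MAX with RANKL, with I-BET and in untreated cells, and 5 had it with RANKL plus I-BET. Among all genes 34.5% had MAX with RANKL, 58.7% with I-BET, 29.8% in untreated cells and 23.5% with RANKL plus I-BET. Eef1a1 had wide peaks throughout, of 1299 bp with RANKL, 1658 bp with I-BET, 1113 bp with RANKL plus I-BET and 1247 bp in untreated cells. At Eef2 the best peaks were 793, 1119, 551 and 936 bp wide in that order, and the E-box printed above, 43 bases upstream of the start, lay inside all 4. Of the exchange factor genes, Eef1b2 and Eef1d kept MAX in all lists, and Eef1g had no peak with RANKL plus I-BET and ranked 8682 of 8839 in untreated cells. The poly(A) binding protein genes Pabpc1 and Pabpc4 and the recycling factor gene Abce1 had MAX in all 4 lists, and the release factor gene Etf1 had none with RANKL plus I-BET.

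RANKL was set against untreated cells to ask what the first hours of the osteoclast signal do to binding at these genes. This comparison and the next share the untreated lists. For MAX, 32 genes were listed in both. Eif3d was added (1 of the 5 genes without an untreated peak, against 10.8% of all such genes), and Eif3i was no longer listed (1 of 33, against 9.81%). The matched peak was wider with RANKL at 22 of 32 genes, against 69.3% of all genes with a match, and the median width was 755 bp with RANKL and 683.5 bp in untreated cells. Edge moves were compared with outward moves counted as positive and inward moves as negative. Where the untreated peak covered a start, the move was larger on the downstream side at 11 of 20 genes, against 54.0% of all such genes. MYC listing differed at 8 genes, 4 in each direction, as given above. Added MYC peaks were listed at 4 of the 34 genes without an untreated one, against 0.677% of all such genes. Among the 136 highest-ranked MYC peaks of each list, 2 of the RANKL genes were found, Eif4a1 and Eif1ad, and 0 of the untreated ones. The share of all genes was not counted in that setting.

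I-BET was set against untreated cells to ask how the listed peaks differ with the inhibitor. Binding of BET proteins was not measured. MAX was added at Eif4ebp2, Eif3c, Eif3d, Eif3h and Eif1ax, the 5 genes of 5 that had no untreated peak (41.3% of all such genes), and 0 of 33 were no longer listed (0.199%). The I-BET list held 36785 peaks and the untreated one 8839. When each MAX list was limited to its 6307 highest-ranked peaks, 31 genes had a peak with I-BET and 30 in untreated cells (26.9% and 23.2% of all genes), with 3 added (9.79% of all genes without an untreated peak) and 2 no longer listed (16.4%). The part of list length in the gain was not tested further. The 5 added genes had a median I-BET rank of 8704 (2831 to 17692), below the median of 1752 for the 33 others, and over all genes the medians were 12752 and 3390. The MAX peaks were wider with I-BET at 33 of 33 genes, against 95.7% of all genes with a matched peak, with median widths of 1324 bp and 673 bp and a median ratio of 2.27, against 2.02 over all genes. At 20 genes whose untreated peak covered a start, the median move was 462.5 bp on the downstream side and 129 bp on the upstream side, with outward moves positive. Over all genes the medians were 323.5 and 154 bp, and the downstream move was the larger at 14 of the 20 genes and at 70.9% of all genes. With 2 or more MAX peaks there were 18 of 38 genes with I-BET and 8 of 33 in untreated cells, against 50.1% and 19.3% of all genes with a peak.

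**Figure D3:**
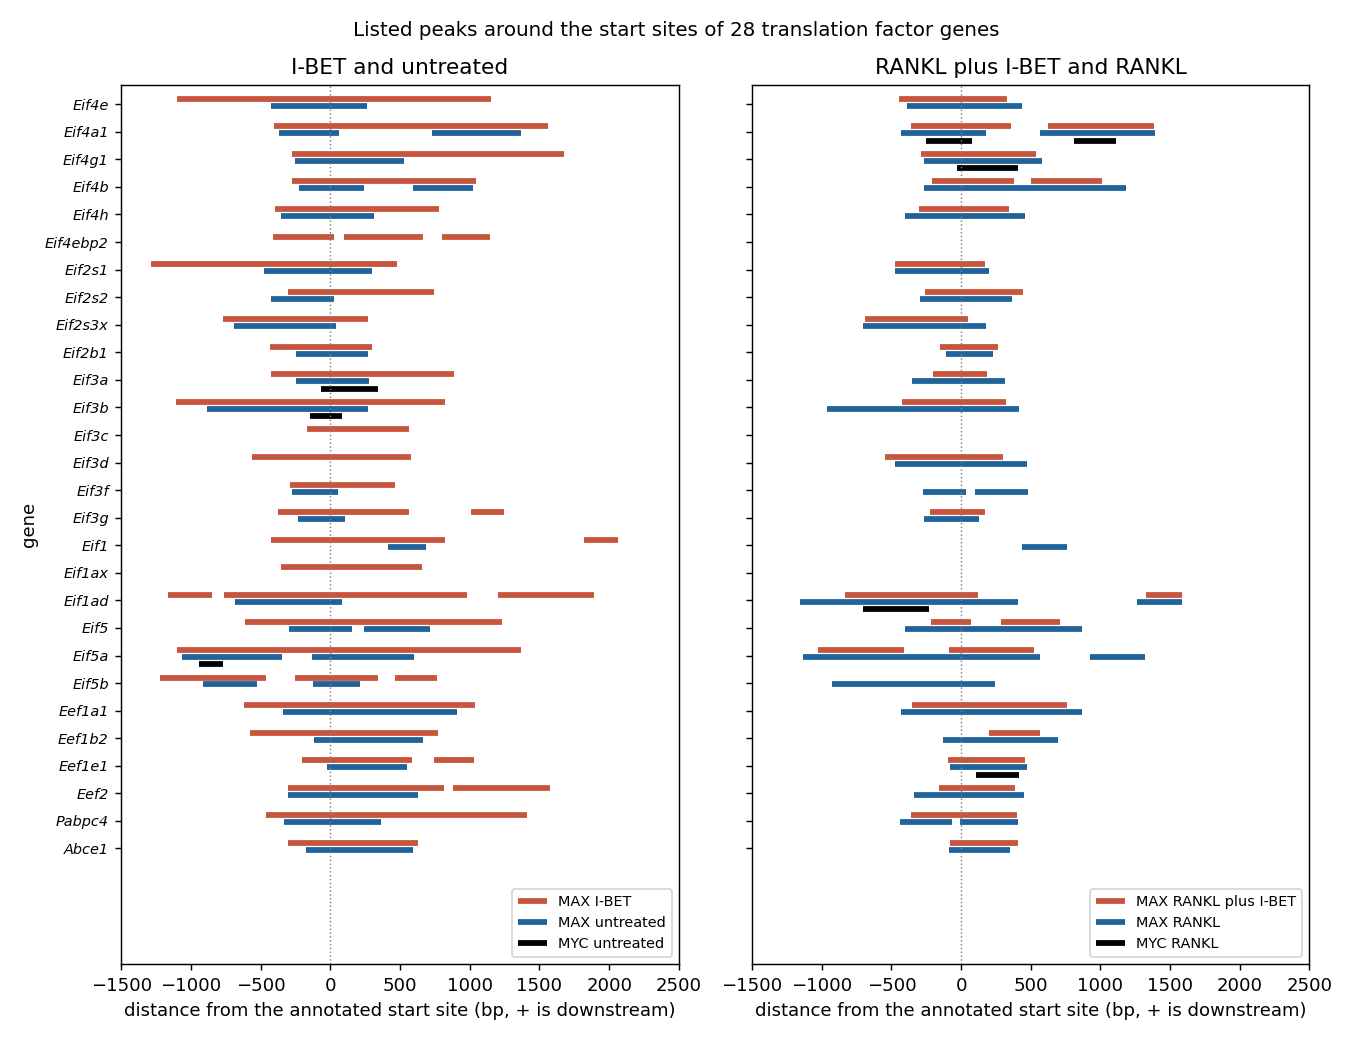
Extent of listed peaks (horizontal bars) relative to 1 annotated start per gene, the one nearest its best I-BET peak, in bp with downstream positive, for the 28 genes with a RefSeq start; peaks beyond the plotted range are not shown. Red bars (MAX with I-BET) reach further than blue bars (MAX untreated) in the left panel, by a median of 462.5 bp downstream and 129 bp upstream at the 20 genes whose untreated peak covers a start. The right panel sets RANKL plus I-BET (red) against RANKL (blue), and black bars are MYC peaks of the untreated or RANKL list.

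RANKL plus I-BET was set against RANKL to see what the inhibitor does during induction. MAX was listed at 27 genes in both, and 6 of the 33 RANKL genes were no longer listed, against 36.0% of all genes. These were Eif3f, Eif1, Eif5b, Eif6, Eef1g and Etf1. Eif3i was added (1 of 5, against 2.13%). In the RANKL list the 6 had a median rank of 4761.5 (2771 to 7585) and the 27 that were listed again a median of 1788 (144 to 3803), so that those absent with the inhibitor had the lower ranks in the RANKL list. Over all genes the medians were 7390 and 2892. The RANKL plus I-BET list held 6307 peaks and the RANKL list 10889. With the 6307 highest-ranked peaks of each, 5 of 32 genes were no longer listed (15.6%, against 19.7% of all genes). In that setting 1 of 6 was added (6.46% of all genes). With 2 or more MAX peaks there were 6 of 28 genes with RANKL plus I-BET (15.6% of all genes with a peak) and 7 of 33 with RANKL (22.4%). Matched peaks were wider with RANKL plus I-BET at 5 of 27 genes, against 16.0% of all genes, with median widths of 643 bp with both agents and 826 bp with RANKL. Counting outward moves as positive, the move was larger on the downstream side at 9 of 21 genes whose RANKL peak covered a start, against 46.5% of all such genes. When set against I-BET alone, RANKL plus I-BET had no MAX peak at 10 of 38 genes, against 60.0% of all genes with an I-BET peak, added none (0% of all genes), and had narrower peaks at all 28 matched genes (median 631.5 bp against 1321.5 bp, with 0.926% of all genes wider). These lists held 6307 and 36785 peaks. With the 6307 highest-ranked peaks of each, 4 genes were no longer listed (26.8% of all genes) and 1 was added (5.20%). Counted the same way, the move was larger on the downstream side at 7 of 22 genes, against 32.0% of all such genes.

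**Figure D4:**
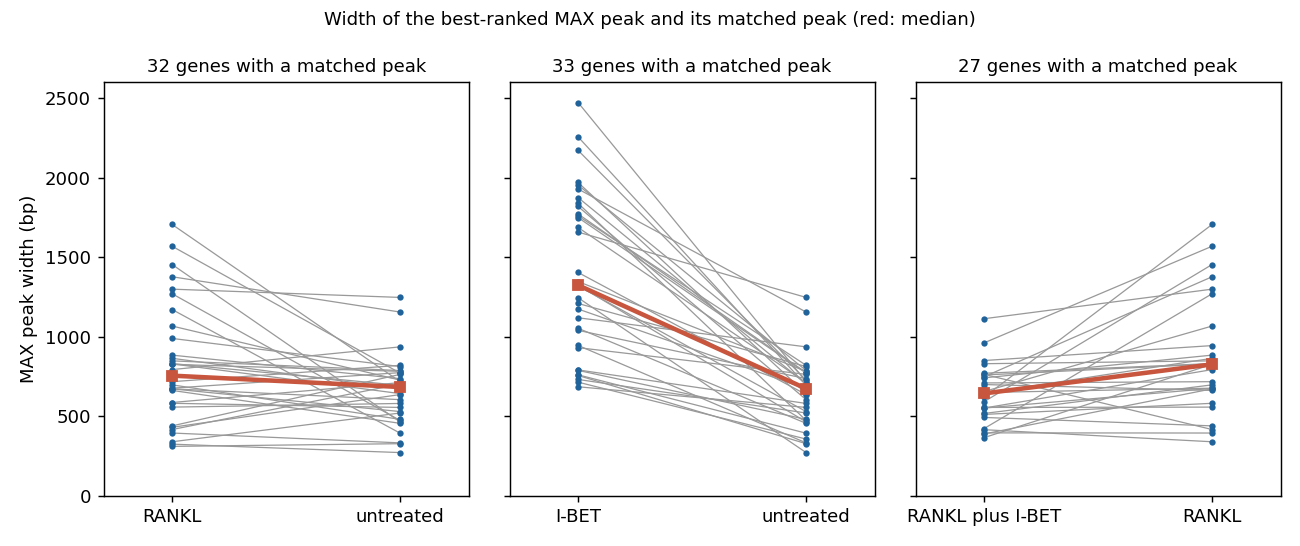
Width (bp) of the best-ranked MAX peak of the right-hand treatment in each panel and of the widest peak overlapping it in the left-hand treatment, 1 grey line per translation factor gene, with red squares at the medians. Medians are 755 bp with RANKL and 683.5 bp untreated, 1324 bp with I-BET and 673 bp untreated, and 643 bp with RANKL plus I-BET and 826 bp with RANKL.

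MAX peaks sat on the start sites of these genes. Of the genes with an annotated start and a MAX peak, a peak covered a start at 24 of 25 with RANKL (71.4% of all such genes), 28 of 28 with I-BET (81.9%), 21 of 22 with RANKL plus I-BET (66.2%) and 23 of 24 in untreated cells (67.8%). Eif1 was the exception with RANKL and in untreated cells, where its peak lay downstream of the start, and Eef1b2 was with RANKL plus I-BET. The 60 MAX regions of the 38 genes, joined where peaks of different lists overlap, were listed in all 4 treatments in 28 cases at 26 genes and with I-BET alone in 21 cases at 16 genes. Over all genes 16.1% of MAX regions were listed in all 4 treatments and 62.5% with I-BET alone, the longest list. Of all genes with a MAX region, 33.5% had one of the kind listed throughout and 68.5% one listed with I-BET alone.

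Genes with a MYC peak had MAX peaks of high rank. With RANKL the 4 genes with MYC had MAX ranks between 411 and 1556 (median 828), against a median of 2542 for the 29 with MAX and no listed MYC. In untreated cells they lay between 713 and 1987 (median 952.5), against 2509. Over all genes the medians were 490.5 and 4653.5 with RANKL, and 422 and 4011 in untreated cells. Genes with a MAX peak also had a MYC peak in 4 of 33 cases with RANKL (3.90% over all genes) and in 4 of 33 in untreated cells (4.61%). Some genes of similar or better MAX rank had no listed MYC, such as Eif2s3x and Eif4h.

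The rest of the pathway was counted over 55 other translation genes, which include the eIF2 kinases, mTOR and its substrates, further initiation factor genes and enzymes that modify eIF5A and eEF2. MAX was listed at 40 with RANKL (72.7%), 51 with I-BET (92.7%), 31 with RANKL plus I-BET (56.4%) and 36 in untreated cells (65.5%). The shares of all genes were 34.5%, 58.7%, 23.5% and 29.8% in the same order. MYC was listed at 4 with RANKL (7.27%, against 1.35% of all genes) and 5 in untreated cells (9.09%, against 1.42%). It was listed at none with I-BET, with or without RANKL. Eif4a2 (the paralog of Eif4a1), Larp1 (a repressor of messages that encode the translation machinery), Rptor (the mTORC1 scaffold) and Ppp1r15b (a phosphatase subunit for eIF2α) had MYC both with RANKL and untreated, and Eif1a in untreated cells alone. Eif4a2 held rank 50 of 299 with RANKL and 54 of 312 in untreated cells. Of the 38 factors none had MYC in both lists, and the difference was not tested. All 5 of these genes had MAX in all 4 treatments.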

How the data were processed

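The authors deposited 8 peak lists (MYC and MAX in 4 treatments) of ChIP-seq in RAW264.7 cells, with 12 libraries in the labels including 4 inputs, which have no list used here. Bowtie2 2.3.4.1, MACS2 2.1.1.20160309, FastQC and the build mm10 (GRCm38) are named in the submitters' processing notes. The names of the MYC lists carry another tag than those of the MAX lists, in the place of a threshold. What the tags mean, and how input was used, is not stated in the labels. Each deposited row gives a position, the names of joined peaks of 3 call sets and a score, the authors' own value for the peak, which was used only to rank peaks within a list (ties by chromosome and start). Whether the call sets are separate cultures is not stated. Read depth is unknown from these files. The MYC lists held 299 peaks with RANKL, 136 with I-BET, 11 with RANKL plus I-BET and 312 untreated, and the MAX lists 10889, 36785, 6307 and 8839. Of the 136 MYC peaks with I-BET, 105 were under 100 bp wide.

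Gene extents came from RefSeq (GRCm38.p6) and start sites from its promoter windows of 300 bases. Overlap was at least 1 bp. A matched peak is the widest one overlapping the best-ranked peak of the other treatment. The members and gene lists were chosen with earlier results of these data known. Named were all members with a MYC peak, those without MAX in untreated cells or with RANKL plus I-BET, the 5 best untreated MAX ranks, and other translation genes with MYC. Further members were named to account for each role. Python 3.11.15, numpy 2.4.6, pandas 2.3.3, scipy 1.17.1, matplotlib 3.10.9 and bedtools 2.31.1 were used. The overlap code was tested on simulated data: 200 of 200 genes given a peak were recovered among 21887, with 0 differences from bedtools there and on the 8 lists.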

Additional observations from a re-analysis of the deposited data

Results flagged for a closer look

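Between lists with and without I-BET, the number of translation factor genes with a MAX peak differed in opposite directions in cells with and without RANKL. Without RANKL, I-BET minus untreated was 5 genes (38 with I-BET, 33 untreated). With RANKL, RANKL plus I-BET minus RANKL was -5 genes (28 with both, 33 with RANKL). All protein-coding genes ran the same way, with 12858 with I-BET and 6524 untreated, and 5139 with both agents and 7548 with RANKL. Each count is 1 list, and the difference was not tested. With equal numbers of top-ranked peaks the counts were 31 and 30 without RANKL, and 28 and 32 with it.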

How the results depend on the processing

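Of 164 recomputed values, 142 stayed within 1.5 times the reported count. Counts of 0 that stayed 0 are among the 142. No value moved past this with no flank, with gene ends alone, without peaks under 100 bp, or with at least 50% of the peak inside the window. With no flank Eif1ad lost its MYC peak with RANKL, which left 3 genes. With gene ends alone Pabpc1 lost its untreated MYC peak, which left 3 genes. No list with a peak at the 38 genes held a peak under 100 bp, so that setting could change no count. With 2.5 kb flanks the gene added for MAX with RANKL dropped to 0. In the higher-scoring 50% of each list, MYC was at 2 genes with RANKL (Eif4a1 and Eif1ad) and 0 untreated. Hence 2 genes were added and 0 no longer listed with RANKL, 0 no longer listed with I-BET, and 2 with RANKL plus I-BET against RANKL. For MAX there, 8 were added and 0 no longer listed with RANKL, 15 were added with I-BET, and 12 and 18 were no longer listed with RANKL plus I-BET against RANKL and against I-BET. With equal numbers of top-ranked peaks (6307 for MAX, 136 for MYC), MYC was at 2 genes with RANKL and 0 untreated, so 2 were added and 0 no longer listed with RANKL, and 0 with I-BET. For MAX 3 were added with RANKL, 3 were added and 2 no longer listed with I-BET, and 1 was added and 4 no longer listed with RANKL plus I-BET against I-BET. Fewer peaks enter these settings, which lowers MYC counts by construction. Shares of all genes in the recomputed peak settings were counted only for the equal-number MAX values given beside them above. The other recomputed peak counts describe the 38 genes alone and are not set against all genes. E-box variants raised the genes with a motif to 12 of 28, against 8, or 42.9% against 31.8% of all genes, where CACGTG alone gave 28.6% against 8.91%. The RANKL plus I-BET list of MYC, with 11 peaks, was too short for equal numbers. No paired analysis was possible because each antibody and treatment has 1 list. Depth is not known, so a missing peak is not shown to be missing binding.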

Other observations

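Away from the start sites, MAX peaks of the translation factor genes were mostly those with I-BET. Of 48 I-BET peaks at the 28 genes with an annotated start, 13 lay more than 1 kb from any start, against 2 of 31 peaks with RANKL, 2 of 28 with RANKL plus I-BET and 2 of 31 in untreated cells. Over all genes these shares were 53.1% with I-BET, 32.8% with RANKL, 27.6% with RANKL plus I-BET and 30.6% in untreated cells, and the I-BET list was the longest, with 36785 peaks. Eif4b carried an I-BET peak of 403 bp inside the gene, from 17517 to 17919 bp downstream of the start, and Eif3c one of 220 bp, from 12099 to 12318 bp downstream. Eef2 had 4 I-BET peaks, of which 2 lay more than 1 kb from the start. At the downstream end of Eif4a1, MAX was listed in all 4 treatments on a stretch shared with the window of Cd68, the macrophage marker gene. The peak there was 589 bp wide with RANKL, 2916 bp with I-BET, 467 bp with RANKL plus I-BET and 449 bp in untreated cells.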
